A study of Mus musculus with 6 samples.

Results

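The 7 sirtuin genes and 3 genes of NAD synthesis (Nampt, Nmnat1 and Nmnat2) were followed in RNA sequencing of whole forebrains from 6 mice. These 10 genes were chosen by name, with earlier results of these data known. All 10 were found by Ensembl identifier among the 35275 genes of the deposited tables. The conditional knockout group (cKO) held 3 C57BL/6 mice of the genotype Pdgfra-CreER:Parp1fl/fl, in which a tamoxifen-inducible recombinase under Pdgfra control acts on a floxed Parp1. The control group held 3 littermates with floxed Parp1 and no Cre. Mice of both groups received tamoxifen once a day from postnatal day 1 to 3, and forebrains were taken at postnatal day 9. The controls carried no CreER, so effects of the transgene itself and of the Parp1 deletion cannot be told apart. Pdgfra marks oligodendrocyte precursor cells and also some perivascular and meningeal cells, and the libraries hold RNA of every forebrain cell.

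Sirtuins are enzymes that remove acetyl or other acyl groups from proteins and consume NAD in each reaction. PARP1, the enzyme deleted here, draws on NAD as well, to build poly(ADP-ribose), and both families release nicotinamide. In the salvage pathway NAMPT turns nicotinamide into nicotinamide mononucleotide, and the NMNAT enzymes turn this into NAD. SIRT1, SIRT6 and SIRT7 are mainly nuclear, SIRT3, SIRT4 and SIRT5 mitochondrial, and SIRT2 mainly cytoplasmic. In brain, SIRT2 is known as an abundant protein of oligodendrocytes and myelin that deacetylates tubulin.

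The genes lie on 8 chromosomes of the mouse build mm10. Sirt2 (ENSMUSG00000015149) spans chromosome 7, 28766735 to 28788661, on the plus strand, and Sirt3 lies on the same chromosome at 140863666 to 140882309. Sirt1 and Sirt6 share chromosome 10. Nampt spans chromosome 12, 32819545 to 32853349. The windows from 250 bases before to 50 bases after the transcription start, taken from RefSeq (GRCm38.p6, the same coordinates as mm10), matched all 10 genes and gave 13 windows, since Sirt3, Sirt6 and Nmnat1 have more than 1 start. A window each is printed for Sirt2, the gene of this set that was lower in cKO, and for Sirt1 and Nampt, whose windows are the richest in G and C of the set. Capitals mark matches on either strand to CCAAT (the CCAAT box), GGGCGG (the GC box), CAGCTG (an E-box) and AACAAT (a SOX core), which may overlap each other.
Sirt2, chr7:28766502-28766801, plus strand: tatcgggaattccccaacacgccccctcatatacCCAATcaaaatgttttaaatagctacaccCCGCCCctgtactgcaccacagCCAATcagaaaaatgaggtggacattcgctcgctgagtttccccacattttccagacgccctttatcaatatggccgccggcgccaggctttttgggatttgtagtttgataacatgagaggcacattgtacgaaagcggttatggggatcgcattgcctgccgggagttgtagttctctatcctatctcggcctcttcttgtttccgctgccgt
Sirt1, chr10:63338986-63339285, minus strand: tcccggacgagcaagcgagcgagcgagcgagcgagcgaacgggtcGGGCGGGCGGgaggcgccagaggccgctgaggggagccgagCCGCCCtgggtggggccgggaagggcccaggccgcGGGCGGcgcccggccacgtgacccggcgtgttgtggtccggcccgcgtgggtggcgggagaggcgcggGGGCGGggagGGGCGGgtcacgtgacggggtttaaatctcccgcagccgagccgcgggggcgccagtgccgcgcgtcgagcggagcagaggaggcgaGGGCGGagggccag
Nampt, chr12:32820085-32820384, plus strand: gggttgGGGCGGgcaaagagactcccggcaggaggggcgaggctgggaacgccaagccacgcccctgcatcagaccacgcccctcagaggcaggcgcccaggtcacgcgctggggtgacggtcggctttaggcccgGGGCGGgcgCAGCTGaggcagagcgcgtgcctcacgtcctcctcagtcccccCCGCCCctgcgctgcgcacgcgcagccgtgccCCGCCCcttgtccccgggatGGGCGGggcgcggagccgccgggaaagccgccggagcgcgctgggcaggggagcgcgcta

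G and C made up 50% of the Sirt2 window, 79.0% of the Sirt1 window and 76.3% of the Nampt window, against a median of 52.7% over all 32851 RefSeq windows. The Sirt2 window was thus the poorest in G and C of the 13, which ran up to 79.0%. It held 2 CCAAT boxes and 1 GC box. CCAAT was found in windows of 4 of the 10 genes and in 37.4% of all windows. GGGCGG was found in windows of 8 of the 10 genes and in 35.7% of all windows, with 7 matches in that of Sirt1 and 5 in that of Nampt. The letters CAGCTG were in the Nampt window alone of the 10 genes and in 16.3% of all windows. Other forms of the E-box were not searched. The SOX core was in windows of Sirt6 alone and in 10.7% of all windows. A match to these letters is no evidence of binding.

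The 6 libraries also differed in ways that the genotype labels do not give. Total counts ran from 19934003 to 29310193 in cKO and from 17262042 to 22118915 in control libraries. In control replicate 3 the summed level of 10 striatal genes was 461 CPM (counts scaled to a common library total with edgeR's TMM factors) and that of 10 thalamic genes was 773 CPM, against 1145 to 1430 CPM and 342 to 395 CPM in the other 5 libraries. Control replicate 1 alone held Y-linked reads, with 1123 counts of Ddx3y against at most 1 in each other library. The targeted gene, Parp1, had 80.8, 79.7 and 79.1 CPM in cKO forebrains, against 90.8, 97.3 and 85.6 CPM in control forebrains. The groups did not overlap, as was so for 11.9% of all tested genes. The log2 fold change of Parp1, -0.19, did not pass the test (edgeR adjusted p = 0.572). The Parp1 count covers all exons and all cell types, and deletion in the cells that express Pdgfra cannot be read from it. Markers of brain cells were present in every library, as the tissue label implies: 10 neuronal genes summed to 5303 to 5852 CPM in cKO and 5334 to 5799 CPM in control libraries.

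Sirt2 fell in the cKO forebrains, and the other 9 genes were not called. Its level was 103, 114 and 111 CPM in cKO replicates 1, 2 and 3, against 180.0, 158 and 171 CPM in control replicates 1, 2 and 3. Every cKO library lay below every control library, with a wide gap between the groups. The means were 109 ± 5.32 CPM in cKO and 170 ± 11.2 CPM in control (SD, n = 3 mice each), a change of -35.5%. The 95% interval of that change reached from -41.7% to -28.6%. On the log2 scale this was -0.63 with a standard error of 0.07 (edgeR quasi-likelihood test, Benjamini-Hochberg adjusted p = 6.11e-04 over 16938 tested genes). Of all tested genes, 0.266% were called (adjusted p under 0.05) in either direction, 0.207% lower and 0.059% higher. Of these 10 genes, 1 was called lower and 0 higher. The 10 genes were chosen with earlier results of these data known, so this count is a description and no independent test. Both groups' ranges were separate for Sirt2 and Sirt3, both lower in cKO, and for 0 genes higher in cKO. Of all tested genes, 5.86% were separate and lower and 6.08% separate and higher. Sirt2 ranked 16th by p among the 16938 genes. Without control replicate 3 its log2 fold change was -0.63, and without control replicate 1 it was -0.59, and it was called in both fits.

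The fall of Sirt2 went with lower levels of most, but not all, of the listed genes that mark the oligodendrocyte lineage. Over 40 such genes the summed level was 1582, 1689 and 1513 CPM in cKO and 2507, 2388 and 2622 CPM in control libraries. Of the 39 that were tested, 35 had a negative log2 fold change, 18 were called lower and none (0) higher, with a median log2 fold change of -0.71 against -0.00 over all tested genes. Of all tested genes, 0.207% were called lower and 0.059% higher. The lists were drawn up with earlier results of these data known, so these counts are a description and no independent test. The 4 positive genes were Rras2 at 0.01 and the mature markers Aspa at 0.02, Mal at 0.18 and Ermn at 0.38. Ermn was low, at 1.05 CPM in cKO and 0.808 CPM in control, without overlap. The mature marker Mog was at -0.00. In a bulk sample, fewer cells of a type and less RNA per cell cannot be told apart, and the part of cell number in the fall of Sirt2 was not tested. Among markers of other cell types, no gene was called by edgeR. The median log2 fold change was 0.01 over 10 neuronal genes and 0.03 over 10 astrocyte genes, with none (0) called in either list by edgeR, DESeq2 or limma-voom and 0 with an unadjusted p under 0.05 in edgeR. Over 10 microglial genes it was 0.47, all 10 were positive and none (0) was called by edgeR, 7 having an unadjusted p under 0.05, while DESeq2 called 3 higher (Fcrls, Csf1r and C1qc). Their summed level was 463 to 566 CPM in cKO and 301 to 450 CPM in control libraries. Over 10 endothelial and mural genes the median was 0.14, with none (0) called by edgeR, DESeq2 or limma-voom and 2 having an unadjusted p under 0.05. Over 10 interferon-response genes it was 1.72, and 1 was called higher by edgeR, Ifi27, against 7 by DESeq2. The part of these cells and genes in the fall of Sirt2 was not tested.

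**Figure D1:**
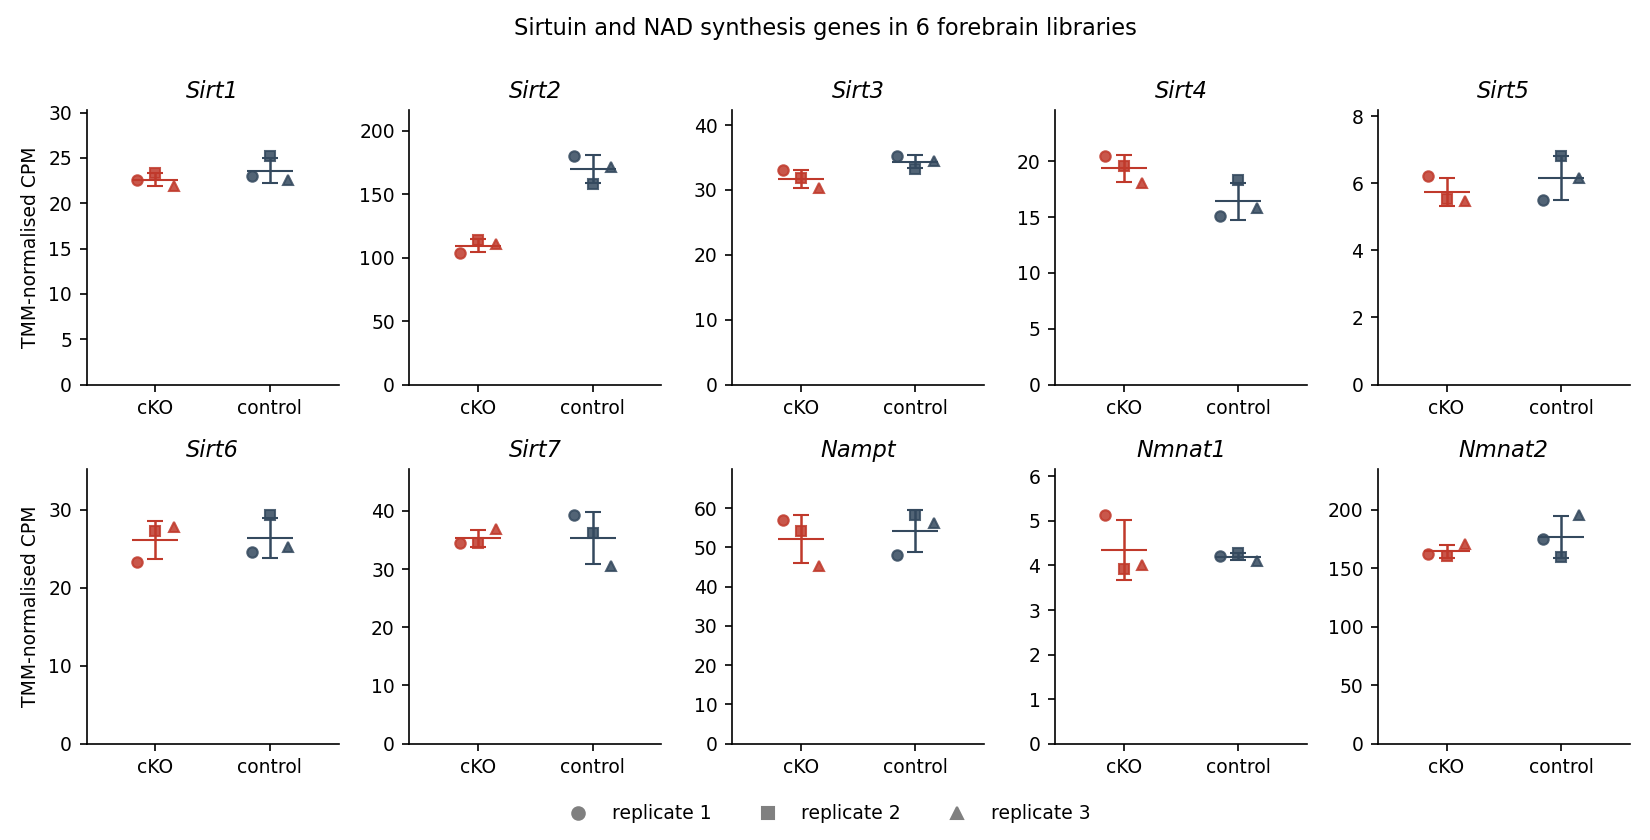
Levels of the 10 genes in each library, in TMM-normalised CPM, cKO at left and control at right in each panel. Points are single mice, with a shape for each replicate number, and the bar and whiskers are the mean and SD of 3 mice. Sirt2 shows a gap between 114 CPM, the highest cKO library, and 158 CPM, the lowest control library, and the ranges of 8 other genes overlap, Sirt3 being separated by a margin too small to see.

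By the deposited FPKM, Sirt2 had the highest level of the 10, but that place depends on the gene length used. FPKM divides the count by 1 fixed length per gene, 2117 bases for Sirt2 and 1461 for Sirt3, which is shorter than their merged exons in GENCODE M21 (5035 and 5973 bases). Sirt2 averaged 51.5 ± 1.86 FPKM in cKO and 80.2 ± 5.06 FPKM in control (SD, n = 3 mice each). Nmnat2 came next, with 35.3 ± 0.947 FPKM in cKO and 38.1 ± 3.53 FPKM in control, and then Sirt3, with 21.7 ± 1.34 FPKM in cKO and 23.5 ± 0.622 FPKM in control. On this scale these 3 genes did not overlap each other or any gene below them in either group. Sirt6, Nampt, Sirt7 and Sirt4 formed a middle tier with means from 10.7 to 13.7 FPKM in cKO and from 9.16 to 14.0 FPKM in control. In cKO the neighbours Sirt6 and Nampt, Nampt and Sirt4, and Sirt4 and Sirt7 overlapped in range. In control the pairs Nampt and Sirt7, and Sirt7 and Sirt4, overlapped. Sirt1, at 5.09 FPKM in cKO and 5.34 FPKM in control, Sirt5, at 4.19 FPKM in cKO and 4.50 FPKM in control, and Nmnat1, at 1.64 FPKM in cKO and 1.58 FPKM in control, were lowest in both groups, in that order and without overlap. With merged exon length in place of the deposited one, Nmnat2 led in cKO at 28.4 ± 1.02 CPM per kilobase, ahead of Sirt2 at 21.7 ± 1.06 CPM per kilobase, without overlap. In control, Sirt2 at 33.7 ± 2.22 and Nmnat2 at 30.5 ± 3.11 CPM per kilobase overlapped. Sirt3 then stood seventh in both groups, at 5.31 CPM per kilobase in cKO and 5.75 CPM per kilobase in control, below Nampt, Sirt6, Sirt4 and Sirt7, and Nmnat1 stood above Sirt5. This second length was tried after the data were seen, and it leaves each gene's own fold change as it was.

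None (0) of the 3 nuclear sirtuins was called, and their groups overlapped. Over all tested genes 0.266% were called and 11.9% had separate groups, so neither point sets these 3 genes apart. Sirt1, a deacetylase of histones and transcription factors, was at 22.6, 23.3 and 21.9 CPM in cKO and 23.0, 25.2 and 22.6 CPM in control (edgeR adjusted p = 0.932 for a log2 fold change of -0.06). Sirt6, a chromatin deacetylase with roles in DNA repair, averaged 26.1 ± 2.44 CPM in cKO and 26.4 ± 2.55 CPM in control (SD, n = 3 mice each). Its log2 fold change was -0.02. Sirt7, a sirtuin of the nucleolus, averaged 35.3 ± 1.42 CPM in cKO and 35.3 ± 4.43 CPM in control, with a log2 fold change of 0.00. The 95% interval for Sirt7 ran from -0.20 to 0.20, which as a percentage is from -13.1% to 15.2%. For Sirt1 the interval ran from -0.25 to 0.13 and for Sirt6 from -0.23 to 0.20. Sirt7 exons overlap those of Mafg on the same strand by 124 bases, which makes its count less certain.

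The mitochondrial sirtuins held the 2 genes with the smallest p after Sirt2, one lower and one higher, and neither passed. Sirt4, a sirtuin with ADP-ribosylation and lipoamidase activity, was at 20.5, 19.6 and 18.1 CPM in cKO and 15.1, 18.3 and 15.8 CPM in control. Only cKO replicate 3 fell within the control range. Its log2 fold change was 0.24 with a 95% interval from 0.01 to 0.47 (edgeR adjusted p = 0.785, unadjusted p = 0.0459), and 6.27% of all tested genes had an unadjusted p under 0.05. Sirt3, the main mitochondrial deacetylase, was at 33.1, 31.8 and 30.3 CPM in cKO and 35.2, 33.3 and 34.5 CPM in control. The groups did not overlap, as was so for 11.9% of all tested genes, but the gap was narrow. Its log2 fold change was -0.11 with an interval from -0.28 to 0.05 (edgeR adjusted p = 0.854). Exons of Sirt3 overlap those of Psmd13 and Ric8a on the opposite strand by 342 and 418 bases, so its count is less certain. Sirt5, which removes succinyl and malonyl groups, had 95 to 157 counts per library. It averaged 5.74 ± 0.417 CPM in cKO and 6.15 ± 0.662 CPM in control, a log2 fold change of -0.11 with an interval from -0.44 to 0.23.

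**Figure D2:**
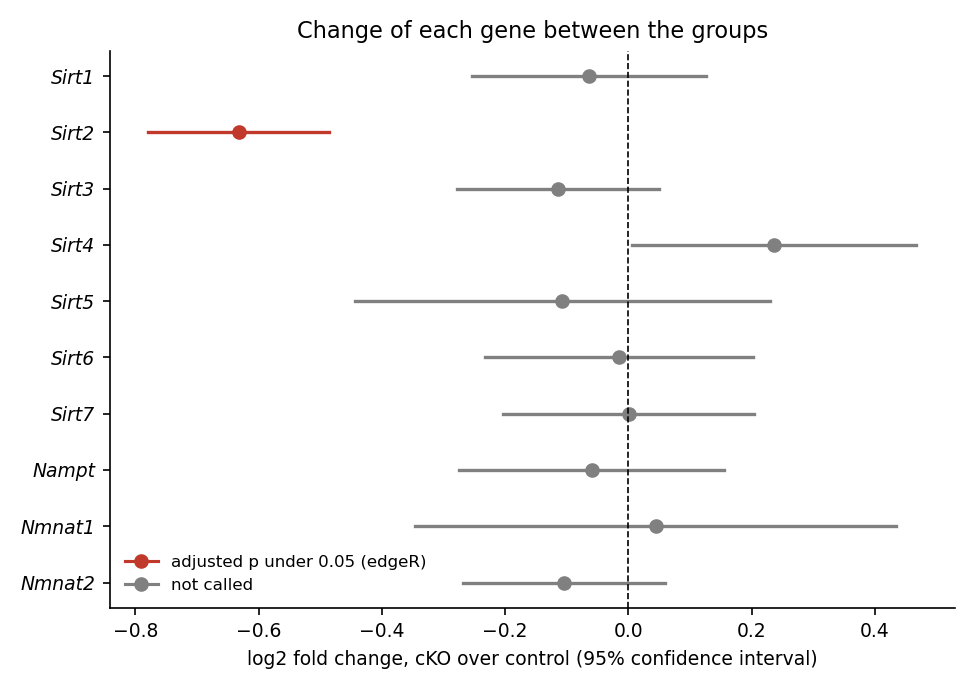
Log2 fold change of each gene, cKO over control, with its 95% confidence interval derived from the edgeR F statistic. Sirt2, at -0.63, is the only gene called, the interval of Sirt4 starts just above 0, and the intervals of the other 8 include 0.

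None (0) of the 3 genes for making NAD from nicotinamide was called either. Calls were rare over all tested genes (0.266%), so their absence does not set these 3 genes apart. Nampt, the rate-limiting enzyme of the salvage pathway, was at 57.0, 54.1 and 45.1 CPM in cKO and 48.0, 58.2 and 56.3 CPM in control. The groups overlapped, with the lowest value in cKO replicate 3. The log2 fold change of Nampt was -0.06 with an interval from -0.28 to 0.16 (edgeR adjusted p = 0.944). It was 0.03 without cKO replicate 3 and -0.14 without control replicate 1. Nmnat2, the cytosolic and Golgi enzyme that axons need to survive, was at 162, 160.0 and 171 CPM in cKO and 175, 159 and 195 CPM in control. The highest value was that of control replicate 3, the library with high thalamic and low striatal genes. The log2 fold change of Nmnat2 was -0.10 with an interval from -0.27 to 0.06 (edgeR adjusted p = 0.862). With 1 library left out it ran from -0.17, without control replicate 2, to -0.03, without control replicate 3. The part of the thalamic and striatal levels in this was not tested. Nmnat1, the nuclear enzyme, ranged from 3.92 to 5.13 CPM in cKO and from 4.11 to 4.28 CPM in control. It had the fewest reads of the 10 genes, 73 to 115 per library, and a log2 fold change of 0.04 with an interval from -0.35 to 0.43. Per deposited length, Nmnat2 exceeded Nmnat1 by 18.1 to 24.5 times in cKO and by 21.3 to 27.2 times in control libraries.

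For each of the 9 genes that were not called, the 95% interval lay above the log2 fold change of Sirt2. The lowest bound among them was -0.44, for Sirt5, and the highest upper bound was 0.47, for Sirt4. Counting error alone gives a coefficient of variation of at most 2.18% for Sirt2 and 11.7% for Nmnat1, and the SD between mice was 4.86% of the mean in cKO and 6.58% in control for Sirt2.

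Since Sirt2 alone was called, its share of the sirtuin transcripts was examined within libraries, where no scaling between libraries enters. Sirt2 made up 42.4%, 44.5% and 44.4% of the summed sirtuin FPKM in cKO, against 56.0%, 51.5% and 55.6% in control libraries. The cKO libraries were all below the controls, by 10.6 percentage points on average. This share was computed because Sirt2 alone was called, so it restates that result on another scale and carries no test. Its level, unlike the order of the groups, rests on the deposited lengths. The summed FPKM of all 7 sirtuins was 118 ± 2.06 in cKO and 147 ± 4.22 in control (SD, n = 3 mice each). Without Sirt2 the sum was 66.2 ± 1.64 FPKM in cKO and 67.3 ± 3.35 FPKM in control, and the groups overlapped. Sirt2 was left out because it was the gene called, so this sum is a description as well. The shares of the mitochondrial sirtuins, 31.1% in cKO and 25.2% in control, and of the nuclear ones, 25.1% in cKO and 20.4% in control, were higher in cKO as a matter of arithmetic, because the shares add up to the whole.

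**Figure D3:**
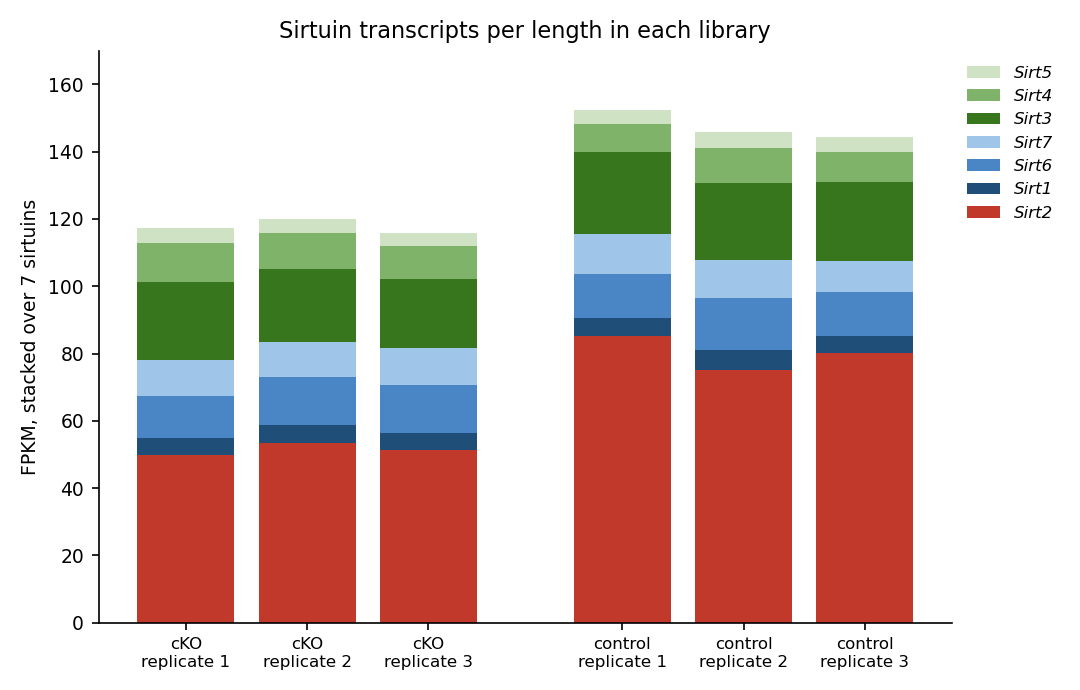
FPKM of the 7 sirtuins stacked in each library, cKO at left and control at right, with Sirt2 at the base, nuclear sirtuins in blue and mitochondrial ones in green. The column heights run from 116 to 120 FPKM in cKO and from 144 to 152 FPKM in control, and the part above Sirt2 is of similar height in all 6.

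The log2 ratio of Sirt2 counts to the geometric mean of the other 6 sirtuins was 2.33, 2.47 and 2.46 in cKO and 3.16, 2.85 and 3.12 in control libraries. The difference was -0.62, with no overlap between the groups, and is likewise a description. Against the oligodendrocyte genes the order of the groups was the reverse. The log2 ratio of Sirt2 to the geometric mean of 39 oligodendrocyte genes was 3.03, 3.02 and 3.19 in cKO and 2.88, 2.78 and 2.70 in control libraries. This ratio was higher in cKO by 0.29 (exact two-sided permutation p = 0.1, the smallest that 3 mice against 3 can give). The 39 genes were listed with earlier results of these data known, and 18 of them were called lower. The p is therefore not that of an independent test, and this ratio too is a description. With the median of the 39 genes in place of their geometric mean the difference was 0.25 and the exact p 0.2, so the separation of the groups rests on that choice. Of the 39 genes, 22 had a lower log2 fold change than Sirt2. Both differences keep their sign when any 1 library is left out.

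**Figure D4:**
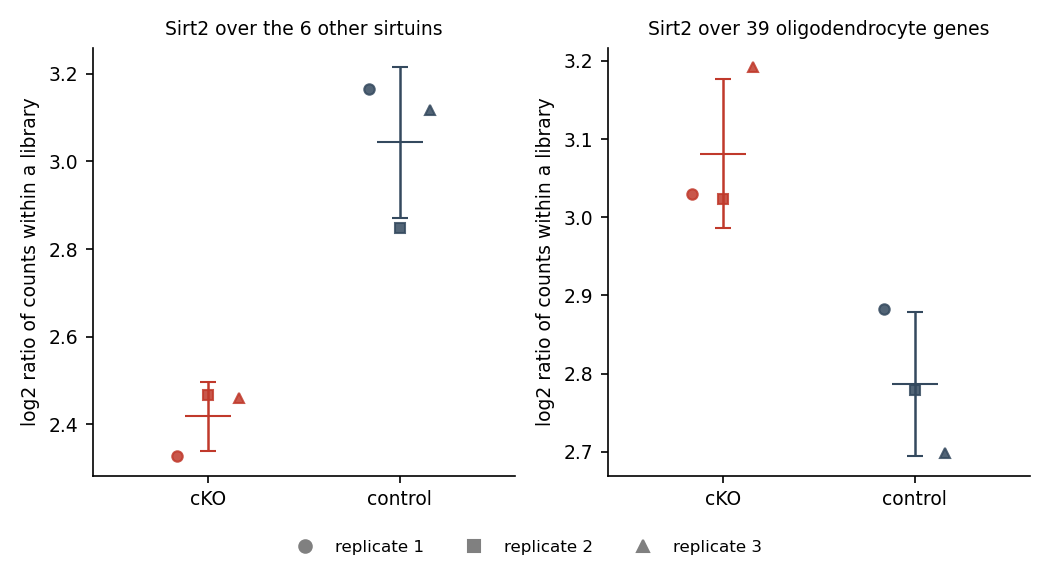
Log2 ratio of Sirt2 counts to the geometric mean of the 6 other sirtuins (left) and of 39 oligodendrocyte genes (right) within each library, cKO before control. Points are single mice, bars and whiskers the mean and SD of 3, and the vertical axes do not start at 0. Means are 2.42 in cKO and 3.04 in control at left, and 3.08 in cKO and 2.79 in control at right.

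Among the 35 genes called lower, Sirt2 combined a moderate fold change with a high level. Of the others, 27 fell by more on the log2 scale and 7 by less. Only Mbp, which encodes myelin basic protein, had a higher level in control than Sirt2, at 117 CPM in cKO and 281 CPM in control (log2 fold change -1.26, edgeR adjusted p = 2.23e-04). Bcas1, a marker of newly formed oligodendrocytes whose exons an antisense gene overlaps, fell to 12.7 CPM in cKO, against 60.7 CPM in control, and Sox10, a transcription factor of the lineage, to 16.8 CPM in cKO, against 44.7 CPM in control. Olig2, which specifies the lineage, had a log2 fold change of -0.61, close to that of Sirt2. Of 2470 tested genes with a mean of at least 100 CPM, 2 had a log2 fold change as low as that of Sirt2, counting Sirt2 itself.

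Among the genes whose levels followed Sirt2 most closely over the 6 libraries were Myrf, Trappc2, Gldc and Bcas1. Their Pearson correlations of log2 CPM with Sirt2 were among the 5 highest over 12066 genes with a mean of at least 5 CPM, from 0.994 for Myrf to 0.991 for Bcas1. These 6 points form separate cKO and control clusters and share their libraries, so the values are a description. Myrf drives myelin gene expression and was called lower, with a log2 fold change of -1.66. Trappc2 and Gldc followed the same order with log2 fold changes of -0.14 and -0.17, neither called. For Nmnat2 the 5 closest included Pigt, Psmc5, Gm4204 and Wdr45b, with correlations from 0.991 to 0.987. For Nampt they were Slc7a1, Lig4, Zfyve16, Cxcr4 and Vps13c, from 0.986 to 0.981, and none (0) of the genes named for Nmnat2 and Nampt was called by edgeR.

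The other genes of NAD metabolism, 32 by list, held no gene called by edgeR, DESeq2 or limma-voom, and edgeR called 0.266% of all tested genes. A row was found for 31, and 24 passed the filter on low counts, with 15 positive and 9 negative log2 fold changes, a median of 0.03 against -0.00 over all tested genes, and 2 with an unadjusted p under 0.05. Those 2 were the NAD consumers Cd38 and Parp1, and 6.27% of all tested genes had such a p. The groups did not overlap for 3 of the 24 genes, as was so for 11.9% of all tested genes. Cd38, an enzyme that cleaves NAD, was at 9.13, 10.1 and 9.95 CPM in cKO and 7.91, 7.32 and 6.43 CPM in control, with no overlap. Its log2 fold change of 0.43 did not pass (edgeR adjusted p = 0.460), and microglial markers, which were also higher, were not tested for a part in it. Sarm1, the NAD-cleaving enzyme that NMNAT2 holds in check in axons, averaged 55.9 CPM in cKO and 54.8 CPM in control.

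In the salvage and Preiss-Handler branch, 5 genes were tested and none (0) was called, the smallest p belonging to Nmrk1, a nicotinamide riboside kinase, with 2.37 ± 0.217 CPM in cKO and 3.09 ± 0.745 CPM in control (SD, n = 3 mice each). Nt5e, an ectonucleotidase that acts on nicotinamide mononucleotide outside cells, averaged 14.2 ± 2.67 CPM in cKO and 12.3 ± 2.04 CPM in control. Nmnat3, the third NMNAT enzyme, was at only 1.43 CPM in cKO and 1.10 CPM in control. The de novo route from tryptophan was barely read. Of the 9 genes listed around it, 5 (Kmo, Kynu, Haao, Acmsd and Qprt) did not pass the filter. Each had at most 17 counts in any library. Of the 4 tested, Ido2 and Afmid had the smallest p, both with a log2 fold change of -0.10. Among 8 genes of NAD kinases, transport and breakdown, Nnt, the mitochondrial transhydrogenase, averaged 11.3 CPM in cKO and 12.8 CPM in control, without overlap (log2 fold change -0.18, adjusted p = 0.846 with edgeR). The annotation holds a second, overlapping gene model named Nnt, so its count is uncertain, as is that of Afmid, whose exons another gene on the same strand overlaps by 1566 bases. Slc25a51, the mitochondrial NAD carrier, averaged 136 CPM in cKO and 132 CPM in control.

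Deacetylases that use zinc rather than NAD gave a comparison for the sirtuins. All 11 genes from Hdac1 to Hdac11 were tested, and none (0) was called by edgeR, DESeq2 or limma-voom or had an unadjusted p under 0.05 in edgeR. Of all tested genes edgeR called only 0.266%, so the absence of calls does not set this list apart. The log2 fold changes of the 11 genes ran from -0.14 to 0.18 with a median of -0.03. Hdac10 had 31.9 ± 2.39 CPM in cKO and 28.1 ± 2.47 CPM in control (SD, n = 3 mice each), and Hdac5 179 ± 3.88 CPM in cKO and 164 ± 17.5 CPM in control. Hdac11, known from oligodendrocytes, had a log2 fold change of -0.12. Among 3 regulators of sirtuins, Hic1, a transcriptional repressor of Sirt1, was at 5.67, 5.01 and 3.03 CPM in cKO and 1.96, 3.04 and 2.78 CPM in control (log2 fold change 0.79, edgeR adjusted p = 0.552). Only cKO replicate 3 lay within the control range. Ccar2, an inhibitor of SIRT1, had a log2 fold change of 0.02 and Rps19bp1, an activator of SIRT1, one of -0.03.

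**Figure D5:**
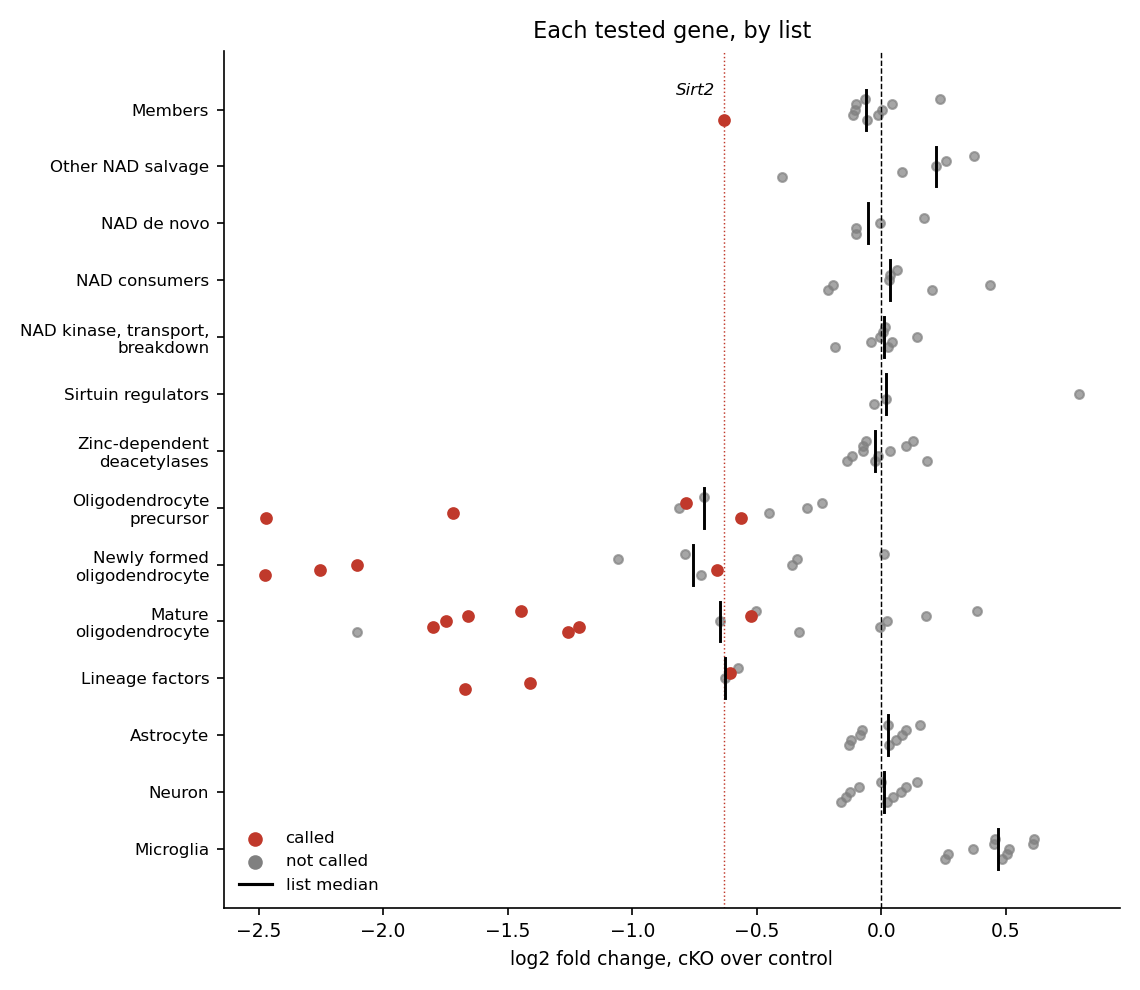
Log2 fold change, cKO over control, of each tested gene in 14 lists, with called genes in red and the list median as a black line. The dotted line stands at Sirt2, whose value of -0.63 lies among those of the oligodendrocyte lists and apart from the other NAD genes and the zinc-dependent deacetylases, whose lowest value is -0.40, for Nmrk1.

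A neighbouring gene shares a short stretch with Sirt2. Exons of Sirt2 overlap those of Nfkbib, an inhibitor of NF-kappaB on the opposite strand, by 42 bases. Nfkbib averaged 21.1 ± 2.65 CPM in cKO and 21.8 ± 1.04 CPM in control (SD, n = 3 mice each), and its log2 fold change was -0.05. The annotation lists 10 transcripts of Sirt2, which the gene counts do not tell apart.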

How the data were processed

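Poly-A selected RNA of 6 mouse forebrains was sequenced; the labels' protocols name a directional library kit and RNA integrity numbers above 6.8. The authors deposited whole-number read counts per Ensembl gene, 1 column per mouse. The submitters' processing notes list CASAVA, STAR 2.5, HTSeq 0.6.1, DESeq and the build mm10, with no role for each. How strand was treated in counting, and the annotation used, is not given in the sources used here. The deposited FPKM values equalled the count divided by a fixed gene length and the library total: 100% of the implied lengths were whole within 0.01 bp. Symbols came from GENCODE M21 for 34490 of 35275 identifiers; Pnp and Lhfpl3 had no row under their identifier there and were not analysed here.

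Counts were tested with edgeR 4.0.16 in R 4.3.3: filterByExpr (minimum count 10, minimum total 15), TMM, and the robust quasi-likelihood test over all 16938 genes kept, with Benjamini-Hochberg adjustment and a threshold of 0.05. The procedure was tested on simulated data. Within-library ratios used log2(count + 0.5). Alternatives were other scalings, filters, DESeq2 1.42.0, limma 3.58.1 (voom with quality weights, and log2(FPKM + 1) or log2(FPKM + 0.1)), a replicate block, and each library left out. The share of summed sirtuin FPKM with its alternatives, and the order of levels by merged exon length, were added after seeing the data. Total counts ran from 17262042 to 29310193, and levels carry counting error beside differences between mice.

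The members and lists were chosen with earlier results of these data known. All 10 members are named, with called pathway genes, the 2 genes of smallest p in each pathway list and, for Sirt2, Nmnat2 and Nampt, the 5 genes of closest pattern, of which some are not reported here. Others named (among them Sarm1, Nmnat3, Hdac11, Ccar2, the low de novo genes, and Olig2) were chosen after their values were seen. P-values measure the spread between these mice.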

Additional observations from a re-analysis of the deposited data

How the results depend on the processing

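The call of Sirt2, lower in cKO, was kept in all 18 alternatives, with log2 fold changes from -0.68 to -0.59 and adjusted p from 5.09e-12 (DESeq2) to 0.0200 (limma on log2(FPKM + 1) without a filter). It was 0.0125 with a replicate block in edgeR. No other of the 10 genes was called in any of them, so the number called stayed at 1. The log2 fold changes of Sirt6, Sirt7, Nampt and Nmnat1 changed sign under some alternatives, within -0.14 to 0.11. None (0) of the other NAD pathway genes was called by any alternative. The difference in the Sirt2 ratio to the other sirtuins was -0.72 to -0.56 and that to the oligodendrocyte genes 0.24 to 0.34 when 1 library was left out; with a replicate block they were -0.62 and 0.29 (exact p = 0.25 for the second, the smallest that 3 pairs can give). With the median in place of the geometric mean they were -0.59 and 0.25, the exact p of the second being 0.2, as it was without cKO replicate 3. The difference in the share of Sirt2 was -12.03 to -9.77 percentage points when 1 library was left out.

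The number of genes called over the whole table, 45, was less stable. It was 111 without a filter, 113 with DESeq2 (51 higher and 62 lower, against 10 and 35 in the edgeR fit reported), 24 with limma on log2(FPKM + 1), 24 on log2(FPKM + 0.1) and 21 on log2(FPKM + 1) without a filter, and the cause was not tested. It was 28 to 60 when 1 library was left out, the lowest without control replicate 1, and 32 with a replicate block. Same-numbered cKO and control libraries did not deviate together, with correlations of 0.00, -0.05 and 0.01, so the numbers were not taken as pairs. With 3 mice per group, small changes of the 9 other genes may remain undetected.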
